A study of Mus musculus with 6 samples.

Results

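Hox genes encode homeodomain transcription factors that give cells their position along the body axis and the limb. Their levels were described in the tibialis anterior, a fast-twitch shin muscle, in 3 sham-operated and 3 castrated mice. Members were the genes whose platform symbol is Hox followed by a cluster letter a to d and a number. The mouse has 39 such genes, and 36 of them had a probe set naming 1 gene alone, out of 22180 genes in the table. The levels of the others were not analysed here. Where a gene had more than 1 such probe set, which was the case for Hoxb5 alone, the one with the highest mean over the 6 arrays was used.

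All mice were male C57Bl/6, operated at 11 weeks of age and killed at 18 weeks, after a fast that began the evening before. The sham samples are labelled fasted and the castrated samples refed. The series design gives only the refed mice a meal of 30 minutes, followed by 4 hours without food, but the sample protocols mention that meal throughout. Surgery thus coincides with the diet label in every mouse, and the effects of the 2 cannot be told apart. Castration removes the testes and with them most circulating androgen. Each sample is labelled as 1 mouse, with nothing said of litters or pooling. A p-value here sets a difference against the scatter of these few samples, which the test draws towards the scatter typical of all genes.

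The mouse carries Hox genes in 4 clusters, Hoxa to Hoxd, and genes of the same number in different clusters are paralogues that descend from one ancestral gene. Within a cluster the genes lie in number order, and low numbers act in the head and neck while high numbers act in the trunk, tail and limbs. In the limb, Hox9 and Hox10 genes pattern the upper segment, Hox11 genes the lower leg and forearm, and Hox13 genes the foot and hand. The posterior Hoxc genes are used in the hindlimb rather than the forelimb. Adult connective tissue cells, muscle stem cells and muscle keep part of this pattern.

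The tissue label was set beside 14 fast muscle markers, whose mean log2 values lay between 11.25 and 13.56, with the sarcomeric actin Acta1 at the 99.97th percentile of all genes. These markers cannot tell the tibialis anterior from other fast muscles. Array medians lay between 5.04 and 5.10. Tbx4, which directs hindlimb growth, was at 6.00 in sham and 6.05 in castrated muscle, and its forelimb counterpart Tbx5 was at 4.64 and 4.53. Pitx1, the hindlimb selector, was at 5.04 in both groups, close to the array median. A bulk sample cannot tell fewer cells of a type from less RNA per cell. Values of different probe sets also depend on how well each binds its target, so orders of level between genes are descriptions without a test.

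Hox levels in this muscle ran from 4.03 to 7.92 (mean log2 value over the 6 samples) and were highest for Hoxc10. As a reference for dim probe sets, 1105 olfactory receptor genes, which muscle is not known to use, had a median of 2.81 and a 95th percentile of 4.97. Above that 95th percentile lay 23 of the 36 Hox genes (63.9%), against 60.1% of all genes. For 21 Hox genes all 6 samples were above it, and for 10 Hox genes none was. Above the 99th percentile of the receptor genes, at 5.91, lay 9 Hox genes. The brightest receptor gene stood at 6.86, and by mean level only Hoxc10 was above it.

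The clusters differed in how many of their genes stood above the 95th percentile of the receptor genes, where 60.1% of all genes did. All 9 measured Hoxa genes did, with a cluster median of 6.08. In Hoxc 6 of 9 genes did, with a median of 5.89. In Hoxb 6 of 10 did, with a median of 5.06, and in Hoxd 2 of 8, Hoxd8 and Hoxd10, with a median of 4.65. By number, 4 of 7 genes of groups 1 to 3, 11 of 14 genes of groups 4 to 8 and 8 of 15 genes of groups 9 to 13 stood above it. These counts depend on the cut. The 9 genes above the 99th percentile were all Hoxa or Hoxc genes, and some Hoxa genes, such as Hoxa10, were not among them.

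**Figure D1:**
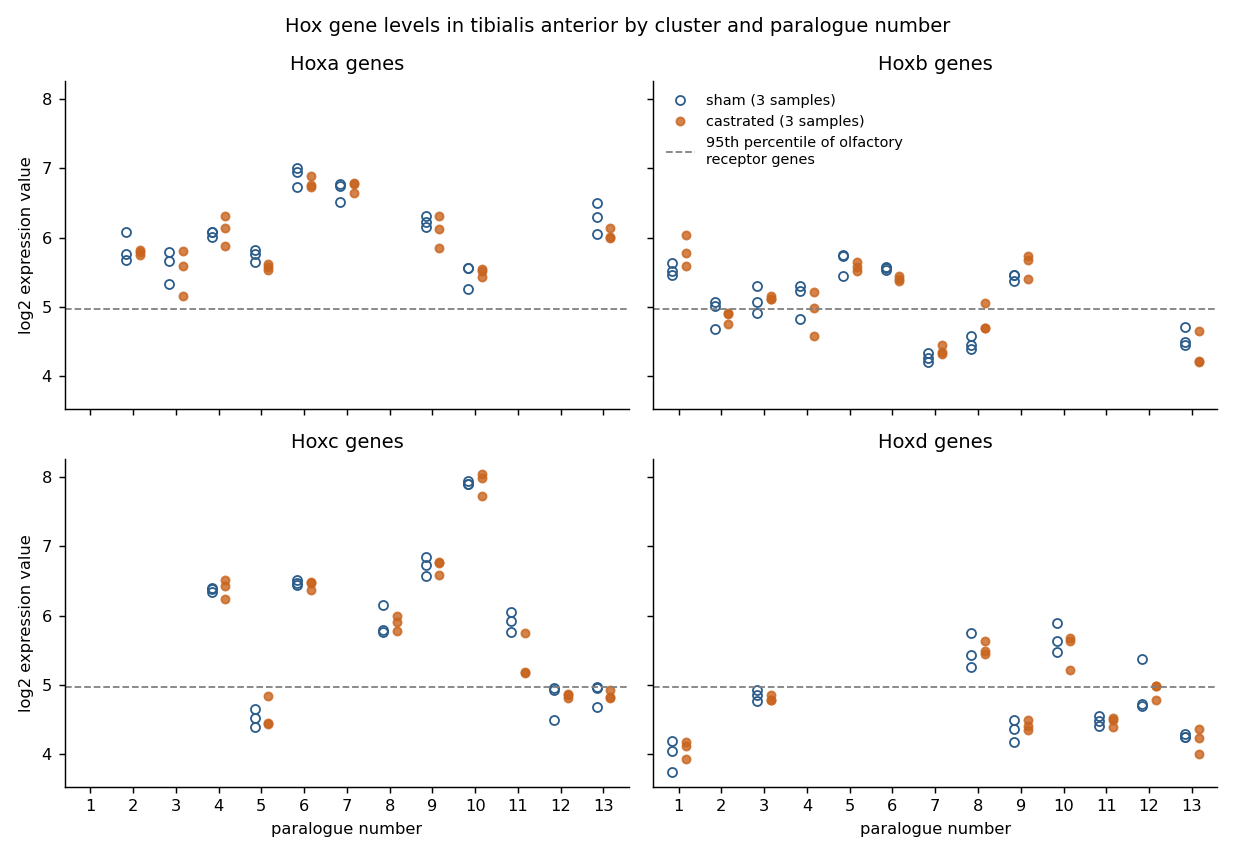
Log2 expression value (y axis) against paralogue number (x axis) for the Hox genes of each cluster; each point is 1 sample, open circles sham and filled circles castrated, and the dashed line marks the 95th percentile of olfactory receptor genes (4.97). Hoxc10 stands highest, all Hoxa genes lie above the line, and most Hoxd genes lie below it.

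The 6 highest members were all Hoxa or Hoxc genes. Not all middle genes of these clusters were bright, since Hoxc5 stood at a mean of 4.54 with no sample above the reference. Hoxc10 (Entrez 209448), a hindlimb gene of the posterior Hoxc group, read 7.90, 7.91 and 7.95 in sham samples 1 to 3 and 7.73, 8.05 and 7.98 in castrated samples 1 to 3. It lay at the 86.5th percentile of all genes, and every sample was above every sample of the next gene, Hoxa6. Hoxa6 read 6.73, 6.95 and 7.01 in sham and 6.90, 6.72 and 6.75 in castrated samples. Hoxa6 acts in the cervical to thoracic part of the axis, and its groups overlapped.

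Hoxc9, which acts at the thoracic to lumbar border, read 6.73, 6.85 and 6.57 in sham and 6.59, 6.78 and 6.76 in castrated samples. Hoxa7 read 6.77, 6.74 and 6.52 in sham and 6.64, 6.79 and 6.78 in castrated samples. Both genes, and Hoxa6 above them, had values that overlapped one another. Hoxc6, a gene of the forelimb level of the axis, read 6.51, 6.47 and 6.44 in sham and 6.47, 6.49 and 6.37 in castrated samples. Hoxc4, a gene of the neck level, read 6.40, 6.39 and 6.34 in sham and 6.43, 6.52 and 6.24 in castrated samples. So some cervical and thoracic genes of Hoxa and Hoxc were among the brightest Hox probe sets of a leg muscle, beside the hindlimb gene Hoxc10. Unlike Hoxc10, their means were all below the brightest receptor gene (6.86), so their level alone does not show that the muscle uses them. Of the 35 neighbouring pairs in the order of levels, 2 did not overlap in any sample, Hoxc10 over Hoxa6 and Hoxa7 over Hoxc6.

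Genes of the limb groups 9 to 11 were uneven between clusters. Hoxa9 read 6.22, 6.32 and 6.15 in sham and 5.85, 6.13 and 6.31 in castrated samples. Hoxa10, a gene of the upper leg group, read 5.55, 5.25 and 5.56 in sham and 5.52, 5.43 and 5.54 in castrated samples. Hoxd10 read 5.89, 5.64 and 5.47 in sham and 5.63, 5.21 and 5.68 in castrated samples. These 3 genes lay between the 51.2nd and the 63.3rd percentile, far under Hoxc10, and their groups overlapped. Hoxd9 read 4.17, 4.35 and 4.49 in sham and 4.40, 4.49 and 4.34 in castrated samples. Hoxd11, a lower leg gene, read 4.47, 4.55 and 4.40 in sham and 4.52, 4.39 and 4.49 in castrated samples. No sample of Hoxd9 or Hoxd11 was above the receptor reference, whereas Hoxc11 was above it in all 6.

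Among the most posterior genes, Hoxa13, which patterns the foot, stood at a mean of 6.17. Its paralogues Hoxb13, Hoxc13 and Hoxd13 stood at 4.45, 4.86 and 4.23, with no sample above the reference. Neither Hox12 gene had a mean above it, with Hoxc12 at 4.81 and Hoxd12 at 4.92. Among the most anterior genes, which act in the hindbrain, Hoxb1 stood at 5.67 and Hoxa2 at 5.81, and Hoxd1 at 4.03 was the dimmest member.

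The pattern was alike on all arrays. Over the 36 genes, pairs of arrays correlated at 0.951 to 0.981. Each gene was read by the same probe set on every array, and the binding of that probe set is part of its level. A high correlation is thus a description, and it was not set beside that of other genes. Members spread around one another with an SD of 0.87, while the median spread of a member within its group was 0.146, close to the 0.145 of all genes. The median level of the Hox genes was 5.53, 5.51 and 5.42 in sham and 5.48, 5.31 and 5.60 in castrated samples, and these groups overlapped.

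No Hox gene passed the test between castrated and sham muscle (limma, Benjamini-Hochberg adjusted p under 0.05 over all genes), where 3 genes of the table, or 0.0135%, did, 0.00451% of genes higher and 0.00902% lower. At an unadjusted p under 0.05 there were 2 Hox genes (5.56%), Hoxc11 lower and Hoxb8 higher in castrated muscle, against 7.13% of all genes (3.62% higher and 3.51% lower). The groups did not overlap for 4 Hox genes (11.1%), against 12.8% of all genes. Of these, 1 was higher (Hoxb8), against 5.73% of all genes, and 3 were lower (Hoxc11, Hoxa5 and Hoxb6), against 7.02%. The median log2 difference was −0.011 over the Hox genes and −0.0056 over all genes. Lower in castrated muscle were 21 of 36 (58.3%), against 51.5% of all genes. These shares lie near those of all genes. The count at an unadjusted p under 0.05 was 1 on leaving out either castrated or sham sample 1, and 4 on leaving out castrated sample 2. Groups of fewer samples overlap less easily, and the count without overlap was 6, 8 and 9 on leaving out castrated samples 1, 2 and 3 in turn, and 8, 10 and 7 on leaving out sham samples 1, 2 and 3. The shares of all genes were not computed with a sample left out, so these counts say nothing about Hox genes in particular. The Hox median was −0.042 without castrated sample 2, −0.041 without sham sample 3, −0.023 without sham sample 2, −0.021 without castrated sample 3 and −0.0027 without castrated sample 1.

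**Figure D2:**
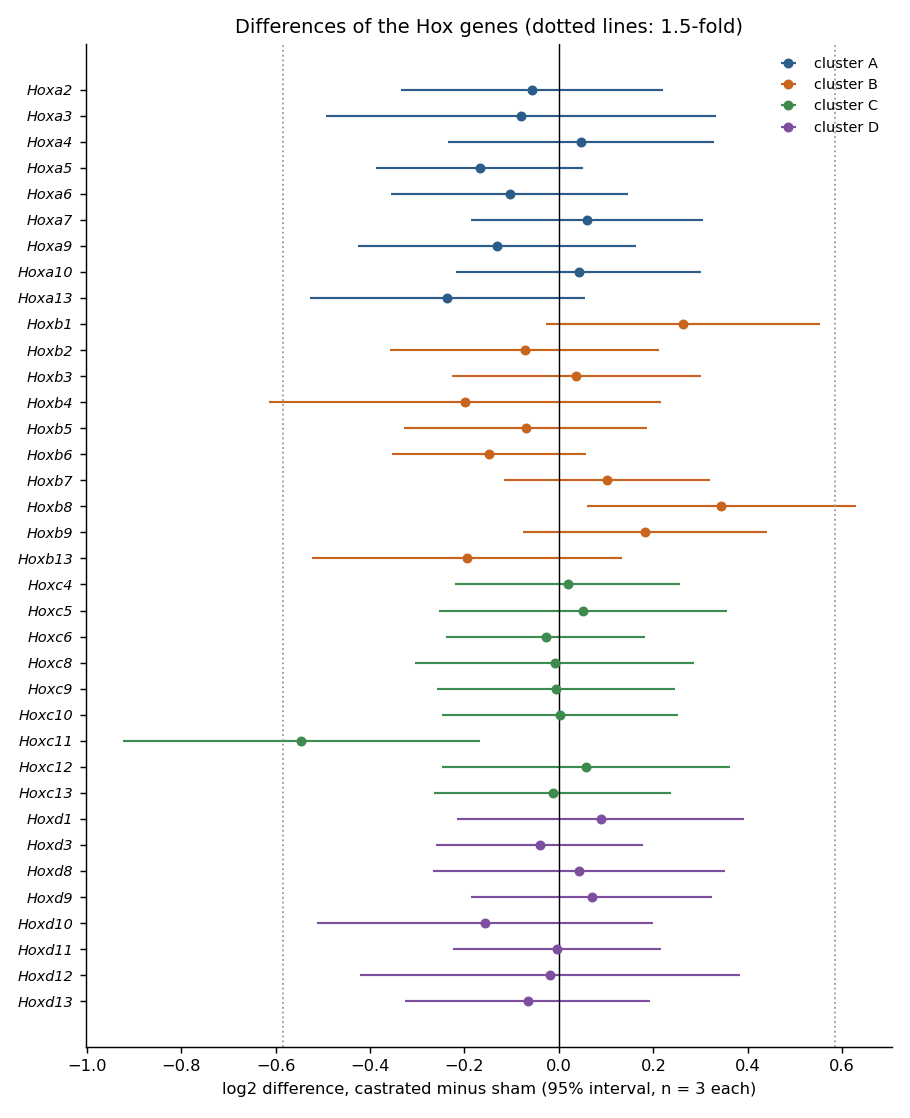
Log2 difference, castrated minus sham, for each of the 36 Hox genes, with 95% intervals from limma (n = 3 each) and colours for the clusters; dotted lines mark 1.5-fold either way. Most points lie near 0, and the interval of Hoxc11, Hoxb8 or Hoxb4 reaches past a dotted line.

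Intervals of most differences lay within 1.5-fold, as they did for most genes of the table. The 95% interval of the difference lay within 1.5-fold either way for 33 of 36 Hox genes (91.7%), against 87.2% of all genes. These were 21 of the 23 genes above the receptor reference and 12 of the 13 others, Hoxd11 among them, for which a narrow interval on a dim probe set does not bound the change of the gene. The 3 with wider intervals were Hoxc11, Hoxb8 and Hoxb4. For Hoxc10 the difference was 0.0027 on the log2 scale (95% interval −0.25 to 0.25), for Hoxc9 −0.0057 (−0.26 to 0.25) and for Hoxd11 −0.0047 (−0.22 to 0.22). For Hoxc4 it was 0.019 (−0.22 to 0.26), for Hoxc6 −0.028 (−0.24 to 0.18) and for Hoxa7 0.060 (−0.19 to 0.31). These intervals hold values of either sign, so they do not settle a direction for these genes. The same holds for every other Hox gene except Hoxc11 and Hoxb8. Standard errors of the members lay between 0.090 and 0.18.

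Hoxc11 (Entrez 109663), a hindlimb gene of the lower leg group, had the smallest p among the members. It read 6.05, 5.76 and 5.93 in sham and 5.17, 5.18 and 5.75 in castrated samples. Castrated samples 1 and 2 were lower than all others, while castrated sample 3 was 0.00537 below the lowest sham sample. The means were 5.91 ± 0.15 and 5.36 ± 0.33 (SD, n = 3 each), a log2 difference of −0.55 (standard error 0.17, 95% interval −0.92 to −0.17), or 1.46-fold. It did not pass (limma adjusted p = 0.638), and with a sample left out the difference lay between −0.74 and −0.45. The adjusted p over its alternatives ran from 0.257, when the dimmer genes up to the 50th percentile were dropped, to 0.821. Its neighbours in the cluster, Hoxc10 and Hoxc12, differed by 0.0027 and 0.057, but no sample of Hoxc12 was above the receptor reference. Hotair, a noncoding RNA of the same cluster, was at −0.25, with groups that overlapped and castrated sample 1 alone low.

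Hoxb8 (Entrez 15416), a gene of the trunk and spinal cord, read 4.45, 4.38 and 4.58 in sham and 5.05, 4.70 and 4.69 in castrated samples. All castrated samples were above all sham samples, and 1 of the 6 samples was above the receptor reference. The log2 difference was 0.34 (standard error 0.13, 95% interval 0.059 to 0.63), 1.27-fold, and did not pass (limma adjusted p = 0.668). Without castrated sample 1 it was 0.23. Hoxb1, an anterior gene of the hindbrain, read 5.52, 5.63 and 5.46 in sham and 6.03, 5.59 and 5.77 in castrated samples, and the groups overlapped. Its difference was 0.26 (standard error 0.13, adjusted p = 0.731 by limma), and 0.15 without castrated sample 1.

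Hoxa13 read 6.30, 6.05 and 6.50 in sham and 6.00, 6.01 and 6.14 in castrated samples. Its difference was −0.24 (standard error 0.13, adjusted p = 0.759 by limma), the groups overlapped, and without sham sample 3 it was −0.13. Hoxa5, a gene of the lung and upper thorax, read 5.65, 5.76 and 5.82 in sham and 5.62, 5.54 and 5.57 in castrated samples. Hoxb6, a trunk gene, read 5.56, 5.57 and 5.52 in sham and 5.37, 5.44 and 5.40 in castrated samples. Both had all castrated samples below all sham samples by small steps, with differences of −0.17 and −0.15 (standard errors 0.097 and 0.090) and limma adjusted p of 0.765 and 0.782. Hoxb6 had the lowest spread within groups of any member by the pooled SD (0.031), with SDs of 0.026 in sham and 0.035 in castrated samples.

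**Figure D3:**
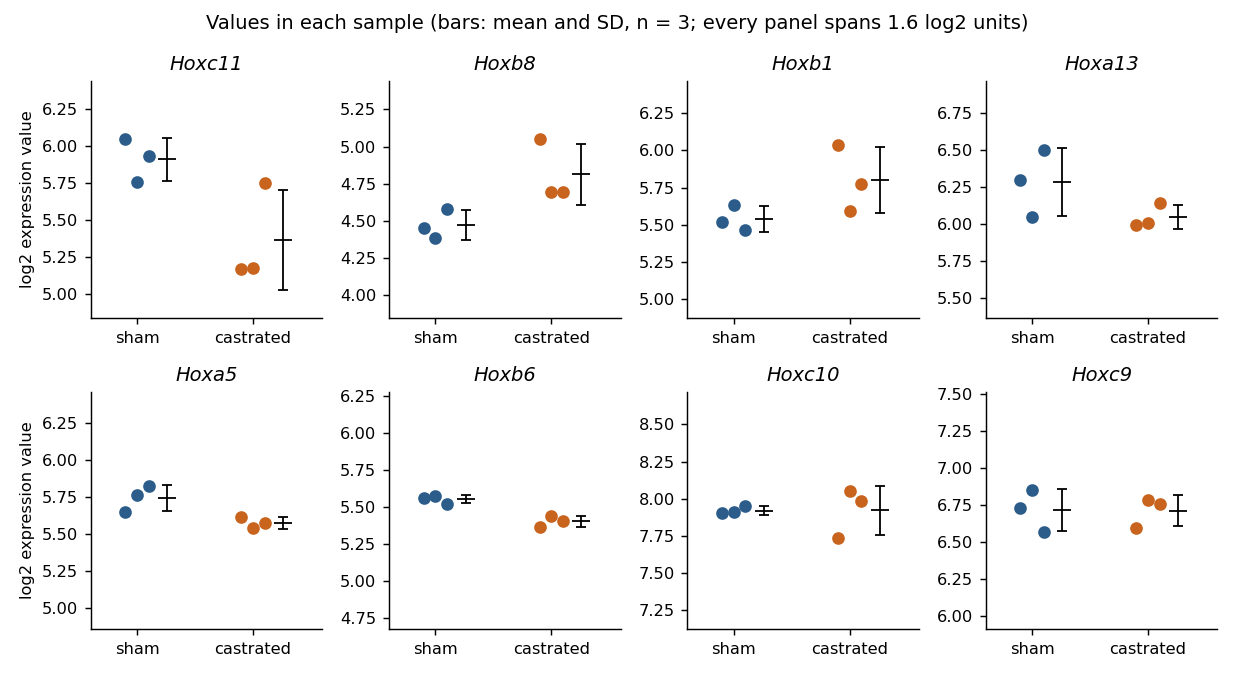
Log2 expression value in each of the 6 samples for the 6 Hox genes with the smallest p and for Hoxc10 and Hoxc9, with mean and SD of each group (n = 3); every panel spans the same height on the log2 scale. Castrated sample 3 of Hoxc11 lies next to the sham samples at 5.75, and the groups of Hoxc10 and Hoxc9 overlap.

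Differences of the axial gene Hoxa6 and of several limb genes moved with single samples. Hoxa6 was at −0.10, and −0.049 without sham sample 3, −0.185 without sham sample 1 or −0.16 without castrated sample 1. Hoxa9 was at −0.13, but −0.0088 and −0.24 on leaving out castrated samples 1 and 3 and −0.085 on leaving out sham sample 2. Hoxd10 was at −0.16, but −0.0097 and −0.24 on leaving out castrated samples 2 and 3 and −0.044 and −0.26 on leaving out sham samples 1 and 3. Hoxa10 and Hoxd9 were at 0.042 and 0.069, and each changed sign with a sample left out.

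No cluster or number range stood out by its differences. Median differences were −0.080 for Hoxa, −0.017 for Hoxb, −0.0057 for Hoxc and −0.011 for Hoxd genes. By number they were −0.040 for groups 1 to 3, 0.0051 for groups 4 to 8 and −0.013 for groups 9 to 13. By single number, differences were all above 0 for Hox1 (0.089 and 0.26) and Hox7 (0.060 and 0.10). They were all below 0 for Hox2 (−0.057 and −0.072), Hox6 (−0.028 to −0.15), Hox11 (−0.0047 and −0.55) and Hox13 (−0.013 to −0.24), and of both signs for the other numbers. Of these, Hoxa7, Hoxc6 and Hoxd11 changed sign with a sample left out, which was looked at only for the genes given by sample. The means of Hoxd1, Hoxb2, Hoxb7, Hoxd11 and 3 of the Hox13 genes were not above the reference. None of these members passed. Each of these numbers had 2 to 4 measured genes, and 51.5% of all genes were lower in castrated muscle. Agreement of signs in sets so small is a description and gives no direction for a number. Among the remaining members Hoxb4 was at −0.20, Hoxb13 at −0.19 and Hoxb9 at 0.18, and the others lay between −0.080 and 0.10. The second probe set of Hoxb5 gave −0.044, where the brighter one gave −0.070.

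Markers of cells that carry Hox genes were set beside these values. The mean level of 13 fibroblast and fibro-adipogenic markers lay between 7.83 and 8.19 in sham and between 7.805 and 8.13 in castrated samples. That of 8 satellite cell markers lay between 5.90 and 6.00 in sham and between 5.88 and 6.10 in castrated samples. For 9 tendon markers the ranges were 6.52 to 7.19 and 6.98 to 7.31, and for 8 adipocyte markers 5.98 to 6.29 and 6.35 to 6.42, where the groups did not overlap. Median differences were 0.48 for tendon markers (7 of 9 higher), 0.22 for adipocyte, 0.14 for satellite cell and −0.015 for fibroblast and fibro-adipogenic markers. At an unadjusted p under 0.05, 4 tendon and 2 adipocyte markers were higher and 0 lower. Of satellite cell markers 1 was higher and 1 lower, and of fibroblast and fibro-adipogenic markers 1 was higher and 2 lower. Over all genes 3.62% were higher and 3.51% lower. The ranges overlapped for endothelial, smooth muscle and pericyte, Schwann cell, macrophage, skin, and bone and cartilage markers, with median differences between −0.081 and 0.091. Among these, 1 endothelial marker was higher and 1 lower at that p, 1 Schwann cell marker was higher and 1 macrophage marker lower. No marker passed the test, and their part in the Hox values was not tested.

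Promoter sequences from RefSeq (GRCm38.p6) were matched by symbol for 20 of the 36 measured genes. With Hoxa11 and Hoxd4 this gave 24 start sites of 22 genes. In the 250 bases before the start, the Hox promoters held a median of 12.5 CG pairs, ranging from 2 at 1 start of Hoxd11 to 35 at Hoxa13, against a median of 6 over 32851 promoters of all genes. The palindrome of the androgen receptor element, AGAACA and TGTTCT with 3 bases between them on either strand, was in 0 of the 24 windows and in 3 of all windows, or 0.009%. TGTTCT alone, which the palindrome contains, was on either strand in 2 of 24 (8.33%) against 16.1% of all, and TATAAA on either strand in 4 of 24 (16.7%) against 12.4%. Of the 4 members whose groups did not overlap, Hoxb8 and Hoxa5 had an entry, and their windows are shown 5′ to 3′ on the strand of the gene, with CG pairs in capitals. Hoxb8 has 12 CG pairs (chr11:96281655-96281904, plus strand) and Hoxa5 has 28 (chr6:52204588-52204837, minus strand).
Hoxb8: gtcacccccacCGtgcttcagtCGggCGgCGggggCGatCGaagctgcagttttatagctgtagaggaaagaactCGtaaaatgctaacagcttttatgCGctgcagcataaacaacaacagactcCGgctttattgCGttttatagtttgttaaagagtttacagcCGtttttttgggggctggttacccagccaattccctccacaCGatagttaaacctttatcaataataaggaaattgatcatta
Hoxa5: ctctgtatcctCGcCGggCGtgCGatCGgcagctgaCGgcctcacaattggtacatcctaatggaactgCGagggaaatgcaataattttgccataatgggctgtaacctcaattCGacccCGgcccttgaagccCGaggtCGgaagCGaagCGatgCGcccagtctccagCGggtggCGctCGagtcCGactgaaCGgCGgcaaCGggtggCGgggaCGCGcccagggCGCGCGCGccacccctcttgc

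Hox proteins bind DNA with TALE cofactors of the Pbx, Meis and Pknox families, and Polycomb and Trithorax proteins hold their clusters silent or active. Of 6 lists of related genes, 74 of 88 genes were measured and none passed the test. At an unadjusted p under 0.05, 2 of 11 cofactor genes were lower and 0 higher, against 3.51% and 3.62% of all genes. Pknox1, a Meis-related partner of Pbx, read 6.21, 6.21 and 6.22 in sham and 5.77, 5.92 and 6.01 in castrated samples. Pbxip1, which binds Pbx and keeps it from its targets, read 9.06, 9.07 and 9.03 in sham and 8.71, 8.80 and 8.74 in castrated samples. In both genes every castrated sample was below every sham sample, with differences of −0.31 and −0.31 (standard errors 0.10 and 0.091, limma adjusted p = 0.658 and 0.624). Meis1 and Meis2 differed by −0.050 and −0.018.

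Of 21 Polycomb and Trithorax genes 1 was lower at an unadjusted p under 0.05 and 0 higher, with a list median of −0.049. In this and the next 3 lists the counts stand against 3.51% of all genes lower and 3.62% higher. It was Ezh2, the Polycomb methyltransferase, at −0.27 (standard error 0.11, adjusted p = 0.687 by limma), and the ligase Rnf2 was at −0.20. Of 12 axial regulators 1 was higher and 0 lower, with a list median of −0.036. The retinoic acid receptor Rarb was at 0.28 and Aldh1a2, which makes retinoic acid, at −0.29. Of 9 limb identity genes 1 was lower and 0 higher, with a list median of 0.0079. En1, which marks the ventral side of the limb, was at −0.32 and Lmx1b, which marks the dorsal side, at 0.26. Groups did not overlap in either gene, and neither passed (limma adjusted p = 0.658 and 0.742). En1 read between 4.18 and 4.70, with no sample above the receptor reference, so its difference rests on a dim probe set. Tbx4, Tbx5 and Pitx1 differed by 0.052, −0.11 and 0.0079. Of 12 other homeobox genes 1 was higher and 1 lower, with a list median of −0.0066. They were Mkx, a tendon factor, at 0.52, and Irx3, a factor of limb and metabolic tissue, at −0.34 (limma adjusted p = 0.596 and 0.560).

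**Figure D4:**
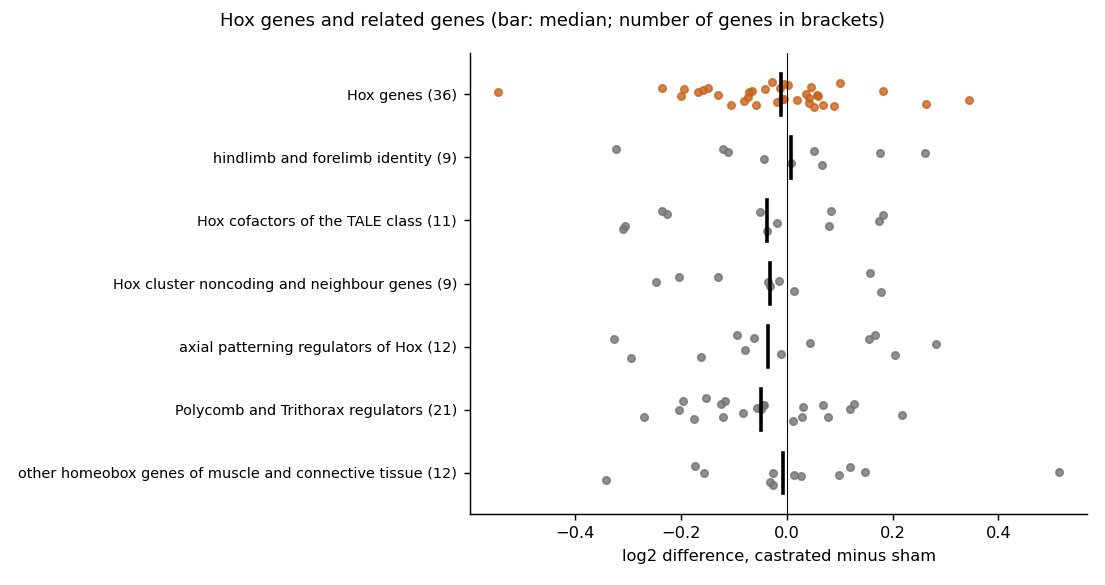
Log2 difference, castrated minus sham (x axis), of the 36 Hox genes and of the measured genes of 6 related lists; each point is 1 gene and each black bar the median of its list. All medians lie between −0.049 and 0.0079.

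Genes inside or beside the clusters include noncoding RNAs and miRNAs, and of 9 measured 0 had an unadjusted p under 0.05, against 7.13% of all genes, with a list median of −0.031. Evx2, the homeobox gene next to Hoxd13, was at 0.18 and Mir615, within the Hoxc cluster, at 0.16. Hotair, a noncoding RNA of the Hoxc cluster, read 5.43, 5.55 and 5.47 in sham and 4.83, 5.47 and 5.42 in castrated samples, so castrated sample 1 alone was low. Hoxaas3 and Hoxd3os1, RNAs antisense to Hox genes, differed by −0.014 and −0.031.

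Hox clusters also encode the miR-10 and miR-196 families, which pair with Hox messages, and miR-196 is known to direct cleavage of the Hoxb8 message. Their mature sequences from RefSeq are shown because they are the regulators built into the clusters, with the seed (bases 2 to 8) in capitals. Mir10a lies between Hoxb5 and Hoxb4, Mir10b beside Hoxd4, Mir196b between Hoxa9 and Hoxa10, and the miR-196a genes beside Hoxb9 and between Hoxc10 and Hoxc9.
mmu-miR-10a-5p: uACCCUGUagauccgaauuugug
mmu-miR-10b-5p: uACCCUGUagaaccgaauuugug
mmu-miR-196a-5p: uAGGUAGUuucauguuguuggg
mmu-miR-196b-5p: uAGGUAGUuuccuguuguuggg
The miR-10 pair shares 1 seed and the miR-196 pair another. Mir196a-2 read 5.02, 4.95 and 5.10 in sham and 5.34, 4.68 and 4.95 in castrated samples, and Mir196a-1 read 3.85, 4.54 and 4.30 in sham and 4.23, 3.97 and 4.10 in castrated samples. The groups overlapped in both, with differences of −0.035 and −0.13. Mir10b, at a mean of 2.57, lay below the receptor median. Mir10a and Mir196b were not analysed here. Whether these probe sets read the precursor or the mature form is not given in the sources used here.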

How the data were processed

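RNA from 6 muscle samples was hybridised to Affymetrix whole-transcript arrays, 300 ng each per the labels' protocols. Each probe set has a log2 value that the authors normalized and deposited, and per the submitters' processing notes Partek was used. No source used here gives the background correction, summarization, normalization or genome build. The number of arrays limits the precision.

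Of 41345 probe sets, 23521 name 1 gene, 1814 several and 16010 none. Symbols were updated by Entrez identifier (23328 matched, GRCm38.p6), and the brightest probe set stood for each of 22180 genes. Castrated samples were tested against sham samples in limma 3.58.1 (R 4.3.3) without covariates or filter, and p-values were adjusted over all genes by Benjamini and Hochberg. The test was checked on simulated data. The Hox genes with the highest level and the smallest p, 6 of each, and the Hox9 to Hox11 genes of clusters a, c and d are given by sample. Related lists are given by counts and their 2 genes of smallest p, with Pitx1, Tbx4, Tbx5, Meis1 and Meis2. Members and lists were chosen with earlier results of these data known. Hox proteins were not analysed here. Alternatives were other normalizations, filters, probe-set rules and variance priors, array weights, the replicate number as a block, and leaving out each sample.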

Additional observations from a re-analysis of the deposited data

How the results depend on the processing

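None of the 17 alternatives, nor an adjusted p threshold of 0.10, put a Hox gene past the threshold, and the smallest adjusted p of a Hox gene was 0.257. Over all genes the count was 9 and 16 when dim genes up to the 25th or the 50th percentile were dropped, 10 with a trended robust variance prior and 0 without variance moderation. With a sample left out it was 3 to 4, the Hox count at an unadjusted p under 0.05 was 1 to 4, the Hox count without overlap 6 to 10, and the Hox median −0.042 to −0.0027. Centring on array medians moved the Hox median to −0.049, while the median of all genes moved to −0.043. Above the 99th percentile of olfactory receptor genes lay 9 Hox genes.

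In their deviations from group means over genes, same-numbered samples of the 2 groups correlated at 0.076, 0.033 and 0.047. Differently numbered ones lay lower, between −0.045 and 0.0018. All of these values are close to 0, and they cannot settle whether the numbers pair the samples. With the replicate number as a block, 2 genes of the table and 0 Hox genes passed, and Hoxc11 had an adjusted p of 0.587.

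Of 286 values of the 17 Hox genes given by sample, 19 changed sign. Hoxc4 was at −0.0068 with array weights and −0.018 after centring, Hoxc9 at 0.015 after cyclic loess and 0.0072 after quantile normalization, and Hoxc10 at −0.035 after centring. With a sample left out, Hoxa7 ran from −0.020 to 0.11, Hoxa10 from −0.061 to 0.096, Hoxc4 from −0.043 to 0.096, Hoxc6 from −0.050 to 0.0072, Hoxc9 from −0.079 to 0.060, Hoxc10 from −0.060 to 0.096, Hoxd9 from −0.014 to 0.15 and Hoxd11 from −0.042 to 0.033. The cause was not tested. The other 9 genes kept their sign. Signal limits what the arrays measure for the 13 Hox genes whose mean was not above the receptor reference.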
